A study of Mus musculus with 12 samples.

Results

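Frontal cortex RNA of mice in which Grin1, lowered by a knockdown allele, had been raised again by Cre in adult life was compared with that of wild-type mice. The comparison covers every gene model that the authors' Cuffdiff run tested between these groups, 18429 of the 31042 models in their table, with folds recomputed as the rescue value over the wild-type value. The rescue group is labelled GluN1Cre in the sample labels and carries NR1, an older name of the same subunit, in the table's header. The wild-type group is labelled WT. Each group held 4 male mice aged 14 weeks, F1 hybrids of C57Bl/6 and 129/SvlmJ. All 8 mice, and the 4 knockdown mice labelled GluN1 that are referred to beside them, were given tamoxifen over 2 weeks that began at an age of 10 weeks, with 6 mg given by gavage and about 14 mg eaten in chow. Tamoxifen activates inducible forms of Cre recombinase, so the wild-type mice carry the drug exposure but, by the group names, no Cre. The labels name neither the Cre driver nor the knockdown allele. Effects of Cre itself and of the Grin1 that was still missing therefore cannot be told apart in this comparison.

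Grin1 encodes GluN1, a subunit without which no NMDA-type glutamate receptor forms. These receptors are glutamate-gated channels that pass calcium when the neuron is already depolarised, and the calcium signal switches on immediate early genes, a set of transcription factors and synaptic proteins induced within minutes of activity. In the frontal cortex NMDA receptors sit on excitatory pyramidal cells and on inhibitory interneurons, and both cell types depend on them for synaptic plasticity.

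The rescue cortex differed from wild type in few genes. A model was called different by the threshold of the study's design text, p under 0.05 and q under 0.10 in the authors' Cuffdiff test. By that threshold 155 models were called, 0.841% of those tested, 67 of them higher in the rescue (0.364%) and 88 lower (0.478%). Immediate early genes, striatal and dopamine genes and Grin1 itself were among the lower ones. Genes of the olfactory bulb and of migrating neuroblasts, several neuropeptide precursors and haemoglobin transcripts were among the higher ones. The gene lists below were chosen with earlier results of these data known, so their counts describe the lists and are no test. Lists and named genes below are counted among the 13835 tested models with a mean of at least 1 FPKM (fragments normalised for transcript length and sequencing depth) over both groups. Of these, 134 were called (0.969%), 55 higher (0.398%) and 79 lower (0.571%). Their median log2 fold was -0.01 and 55.8% of their folds were negative. Most differences were small, with a median log2 fold of 0.52 among these 55 models called higher and -0.51 among the 79 called lower. Among the called models of at least 1 FPKM, 11 were at least 2-fold higher and 4 at least 2-fold lower.

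Each group has a single FPKM, estimated by the authors over its libraries, so no spread between animals can be given, read depth is unknown, and the error behind each call is that of the authors' test. Nothing in the labels says more of how the 4 samples of a group relate than their numbers. Without values per sample, what spread these p-values measure cannot be checked. Of the called models 94 carry the smallest p the table holds, 5e-05, with a q of 0.0098 in the authors' deposited table. The deposited test statistic was at the median 0.50 of the normal deviate of its deposited p-value. With p taken from the statistic instead, 18 models were called, 10 higher and 8 lower. Among those 18 were Grin1, Adamts2, Eomes, Shisa3, Rplp2 and 1 haemoglobin model. The 18 were not a subset of the models called by the deposited p. Snhg9 and several models without a symbol were called from the statistic only. Such a model, at 2003 FPKM in wild type and 1992 in the rescue, had a log2 fold of -0.008 and a statistic of -8.95. None of the immediate early, striatal or neuropeptide genes described below was among the 18.

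**Figure D1:**
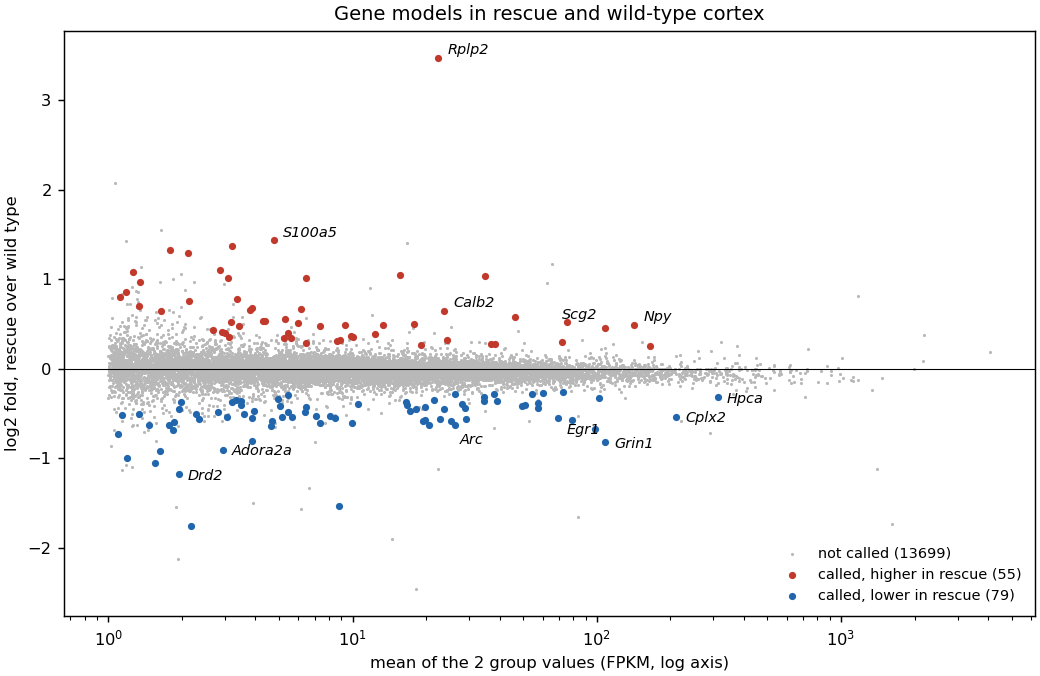
Log2 fold of rescue over wild type (vertical axis) against the mean FPKM of both groups (horizontal log axis) for tested models with a mean of at least 1 FPKM, leaving out 2 models that have a group listed at 0. Red and blue points are the 55 models called higher and the 79 called lower, and grey points the 13699 not called; Rplp2 stands far above the rest and Grin1 is among the most abundant models called lower.

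The libraries held the transcripts that define cortex. Slc17a7, the vesicular glutamate transporter of cortical pyramidal cells, lay at 628 FPKM in wild type and 611 in the rescue. The pyramidal cell transcription factors Tbr1 (63.0 and 59.4 FPKM) and Neurod6 (38.0 and 36.5) were close between the groups and not called. The hypothalamic peptide genes Hcrt, Pmch, Oxt and Avp and the choroid plexus gene Ttr were not tested, and the highest of their values was 0.305 FPKM, for Avp in wild type. Other genes of the same check were less alike between the groups. Drd2 was called lower (2.70 FPKM in wild type and 1.19 in the rescue) and Th higher (4.76 and 7.55). Omp (1.10 and 2.15) and Gh (0.0139 and 1.93) were not called.

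Grin1 stood at 138 FPKM in wild type and 78.0 FPKM in the rescue, which is 56.5% as much. The log2 fold was -0.82, and q in the authors' deposited table was 0.0098. The authors placed the model on chromosome 2 of GRCm38 from 25288144 to 25319163. GENCODE M21 lists the gene as ENSMUSG00000026959, protein coding, on the minus strand from 25291181 to 25319187. Between wild type and knockdown the level fell from 138 to 56.7 FPKM, and between knockdown and rescue it rose from 65.7 to 86.7 FPKM, with q at 0.038 in the authors' deposited table. The 3 tables were normalised separately and share groups, so their values stand side by side without adding support to one another. The rescue thus kept a Grin1 transcript level below wild type and above the knockdown.

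No other NMDA receptor gene was called. Grin2b, the subunit that gives the receptor slow kinetics and predominates early in life, lay at 26.4 FPKM in wild type and 29.5 in the rescue (log2 fold 0.16, with an unadjusted p of 0.0345 in the authors' deposited table). Grin2a, the main adult partner of GluN1 in cortex, lay at 11.7 and 11.8 FPKM, and a further model of it below 1 FPKM. Grin2c (17.0 and 16.6 FPKM), Grin2d (4.94 and 5.12) and Grin3a (7.81 and 8.24) differed by no more than 0.08 on the log2 scale. Grina, an NMDA receptor-associated membrane protein and no subunit, lay at 194 and 189 FPKM. None of 23 models of AMPA receptor subunits and auxiliary proteins, 9 of kainate and delta receptors or 7 of metabotropic glutamate receptors was called, at median log2 folds of 0.01, -0.00 and 0.05. At an unadjusted p under 0.05 in the authors' test 3, 0 and 1 of them were counted.

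Among the proteins that anchor and read out NMDA receptors, 1 of 31 postsynaptic models was called and it was higher. That share is 3.23%, against 0.398% of all models of this level. This was Nos1, the neuronal nitric oxide synthase that is tethered beside NMDA receptors and activated by their calcium, at 6.17 FPKM in wild type and 8.58 in the rescue (log2 fold 0.48). Its fold was 0.06 in knockdown against wild type, not called, and 0.42 in rescue against knockdown, called higher. Nos1 is also a marker of a small class of interneurons. Of the other 30 postsynaptic models most folds were negative, and the list's median was -0.05. In the presynaptic release machinery 2 of 29 models were called, both lower (6.9%, against 0.571% of all models of this level). Cplx2, complexin 2, which clamps and promotes vesicle fusion, lay at 250 FPKM in wild type and 172 in the rescue (log2 fold -0.54), against a fold of -0.45 in knockdown over wild type and -0.09 in rescue over knockdown. Cplx3, a complexin that also marks the deepest cortical neurons, lay at 4.59 and 3.30 FPKM. Hpca, hippocalcin, a neuronal calcium sensor, was the most abundant model called lower, at 347 and 278 FPKM. Its folds were -0.33 in knockdown over wild type and 0.01 in rescue over knockdown.

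Immediate early genes stood lower in the rescue. Of 22 models of immediate early transcription factors and Arc, 10 were called lower (45.5%, against 0.571% of all models of this level), 0 higher and 12 were not called. The list's median log2 fold was -0.19 and 19 of its folds were negative. Arc, whose product promotes the removal of AMPA receptors from synapses, lay at 31.8 FPKM in wild type and 20.6 in the rescue. Egr1 lay at 82.4 and 56.2 FPKM and Egr2 at 2.13 and 1.13; both encode zinc finger factors, and Egr1 is among the transcripts most used to read neuronal activity. Junb, a subunit of the AP-1 transcription factor, lay at 30.4 and 20.2 FPKM and its partner Fos at 10.0 and 6.85. The orphan nuclear receptor Nr4a1 lay at 34.6 and 23.5 FPKM and its relative Nr4a2 at 9.6 and 6.64. The remaining members called, named after their values were seen, were Egr4 (21.0 and 15.4 FPKM), Nr4a3 (7.4 and 5.48) and Klf10 (11.9 and 9.05). Log2 folds of the 10 ran from -0.40 for Klf10 to -0.91 for Egr2.

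Activity genes of the same kind that were not called are named here after their values were seen. Egr3 lay at 45.5 FPKM in wild type and 40.1 in the rescue, Npas4, which is induced by calcium alone, at 6.39 and 5.63, Jun at 19.3 in both groups and Fosb at 4.78 and 5.27. The list had no single direction among those: Fosb had the highest fold of all 22 models, 0.14. In the authors' comparison of rescue with knockdown, where 0.806% of all models of at least 1 FPKM were called, 0 of the 22 were, and the list's median log2 fold was -0.05. In that of knockdown with wild type, where 2.67% of such models were called, 9 of the 22 were, and the median was -0.24. For Arc the folds were -0.68 in knockdown over wild type and 0.05 in rescue over knockdown, for Egr1 -0.49 and -0.05, for Junb -0.50 and -0.09, and for Nr4a2 -0.23, not called, and -0.30, not called.

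Promoters of these genes are shown as background. The calcium signal of NMDA receptors is known to reach many immediate early genes through the factor CREB, and whether it did so here was not tested. CREB binds the cyclic AMP response element (CRE) TGACGTCA and, more weakly, its shorter form TGACG. The 250 bases before the most upstream start of each gene in RefSeq (GRCm38.p6) were searched for both on either strand; every full CRE also holds the shorter form. Of the 10 called genes 7 matched the promoter table by symbol, and Arc, Egr1 and Klf10 did not. The shorter form was present in 6 of those 7, in 11 of 16 matched immediate early genes that were tested, and in 17.8% of all 27025 genes of the table. The full CRE was present in 0 of the 7 and in 1.6% of all genes. The CArG box, bound by serum response factor, was in 0 of the 7 and in 1.41% of all genes in this window. The gene without the shorter form was Egr2, the 1 of the 7 with more than 1 start in the table: of its 5 starts the most upstream had neither motif, while 3 of the others had the shorter form and 4 the CArG box, and the authors' model begins beside those later starts, at 67537868 on chromosome 10. A match is a run of letters, and no match says only that the run is not in the window searched. The sequences of 5 called genes, each 250 bases that overlap no GENCODE M21 exon, lie at chr12:85473640-85473889 on the plus strand for Fos, chr8:84978749-84978998 on the minus strand for Junb, chr6:85513590-85513839 on the minus strand for Egr4, chr15:101266596-101266845 on the plus strand for Nr4a1 and chr2:57124004-57124253 on the minus strand for Nr4a2. They read 5′ to 3′ in the direction of transcription and end at the base before the start, with the shorter CRE form in capitals, TGACG on the strand shown and CGTCA for the opposite strand.

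Fos: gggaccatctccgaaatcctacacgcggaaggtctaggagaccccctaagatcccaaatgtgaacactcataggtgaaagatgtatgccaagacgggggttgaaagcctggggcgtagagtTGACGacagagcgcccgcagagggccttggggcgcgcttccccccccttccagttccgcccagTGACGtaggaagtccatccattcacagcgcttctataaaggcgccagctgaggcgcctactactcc
Junb: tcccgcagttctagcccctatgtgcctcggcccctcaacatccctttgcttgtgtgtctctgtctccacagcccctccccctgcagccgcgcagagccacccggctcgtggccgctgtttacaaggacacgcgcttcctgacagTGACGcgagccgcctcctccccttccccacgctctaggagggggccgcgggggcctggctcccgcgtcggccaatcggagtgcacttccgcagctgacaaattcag
Egr4: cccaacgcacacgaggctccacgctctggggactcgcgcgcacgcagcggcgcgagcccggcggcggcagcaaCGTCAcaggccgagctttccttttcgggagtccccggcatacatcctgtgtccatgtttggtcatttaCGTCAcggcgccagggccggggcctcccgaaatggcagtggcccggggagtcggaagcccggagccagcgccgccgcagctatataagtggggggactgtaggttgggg
Nr4a1: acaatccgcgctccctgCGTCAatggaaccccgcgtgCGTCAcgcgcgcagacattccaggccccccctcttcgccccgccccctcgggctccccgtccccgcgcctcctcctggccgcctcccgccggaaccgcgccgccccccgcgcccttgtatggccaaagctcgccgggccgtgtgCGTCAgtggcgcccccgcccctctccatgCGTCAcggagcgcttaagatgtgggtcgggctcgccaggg
Nr4a2: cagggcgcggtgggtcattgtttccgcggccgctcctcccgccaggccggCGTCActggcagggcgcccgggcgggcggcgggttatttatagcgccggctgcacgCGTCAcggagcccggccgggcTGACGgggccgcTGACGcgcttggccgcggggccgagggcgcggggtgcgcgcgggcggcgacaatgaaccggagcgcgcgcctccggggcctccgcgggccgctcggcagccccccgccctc

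The matches differ in number and place. Junb holds 1, which begins 106 bases before the start. Fos holds 2, which begin 129 and 66 bases before it, and Egr4 holds 2 at 177 and 109 bases. Nr4a1 and Nr4a2 hold 4 each; the nearest to the start begins 40 bases before it in Nr4a1 and 111 bases in Nr4a2. Their log2 folds of rescue over wild type, -0.59 for Junb, -0.55 for Fos, -0.45 for Egr4, -0.56 for Nr4a1 and -0.53 for Nr4a2, show no order by the number of matches.

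Genes induced later, downstream of the immediate early factors, held calls in both directions. Of 31 models of secondary activity-induced effectors 4 were called lower (12.9%) and 1 higher (3.23%), and the median log2 fold was -0.06. Among all models of this level 0.571% were called lower and 0.398% higher. The lower ones were Nr4a1, which the first list also holds, Arl4d, a small GTPase of the ADP-ribosylation factor family (11.95 and 7.87 FPKM), Per1, a circadian clock repressor that activity also induces (22.8 and 16.9 FPKM), and Trib1, a pseudokinase (5.79 and 4.33 FPKM). The higher one was Rgs4, which shortens signalling by G proteins, at 150 and 180 FPKM. Bdnf, the neurotrophin most studied as an activity gene and named after its values were seen, lay at 7.23 and 8.95 FPKM in its main model (log2 fold 0.31, with q at 0.202 in the authors' deposited table) and was not called. None of 13 models of MAP kinase feedback genes and none of 6 of neurotrophins and their receptors was called, with 3 and 1 at an unadjusted p under 0.05 in the authors' test.

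**Figure D2:**
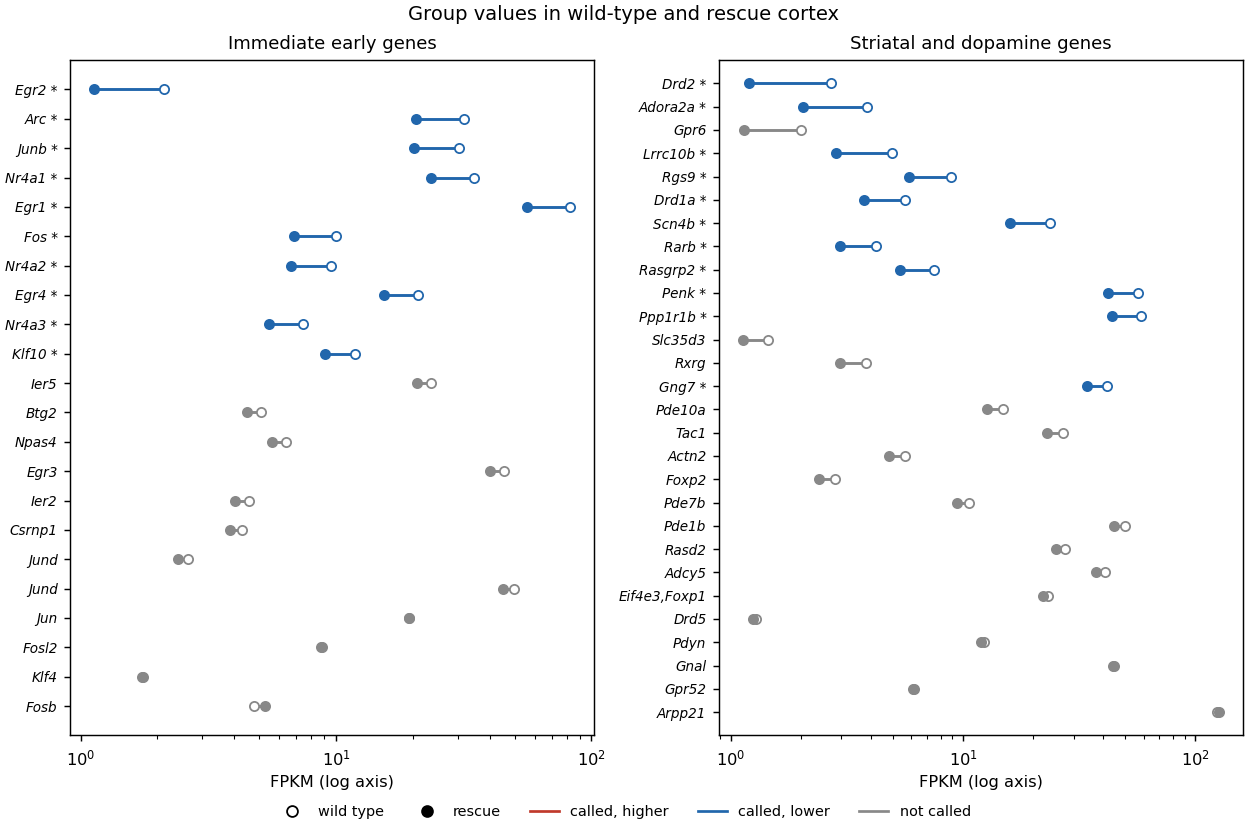
FPKM of each group (log axis, open circles wild type, filled circles rescue) for the 22 immediate early models on the left and 28 of the 29 striatal and dopamine models on the right, ordered by fold, with asterisks and blue for models called lower and grey for models not called. In the called models the rescue value lies to the left of wild type, as for Arc (31.8 and 20.6) and Drd2 (2.70 and 1.19).

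Striatal and dopamine genes held the most models called lower of the 55 lists counted, by number. The share called lower was larger in the immediate early list, at 45.5%. Of 29 models of striatal medium spiny neuron and dopamine genes, 12 were called lower (41.4%, against 0.571% of all models of this level), 0 higher and 17 were not called. The median log2 fold was -0.28, and 27 folds were negative. Drd2, the dopamine D2 receptor, lay at 2.70 FPKM in wild type and 1.19 in the rescue, 44.2% of the wild-type level. Adora2a, an adenosine receptor that shares neurons with it in the striatum, lay at 3.85 and 2.05 FPKM. Drd1a, the dopamine D1 receptor, which cortical neurons also express, lay at 5.64 and 3.75 FPKM. Downstream of the receptors, Rgs9, which speeds the shut-off of their G proteins, lay at 8.90 and 5.85 FPKM, and Ppp1r1b, the protein phosphatase inhibitor DARPP-32, named after its values were seen, at 58.1 and 43.8. Penk, the enkephalin precursor, lay at 56.4 and 42.1 FPKM, and Scn4b, a sodium channel subunit abundant in these neurons, at 23.7 and 15.9. Lrrc10b lay at 4.95 and 2.83 FPKM. Gng7, a G protein subunit, lay at 41.6 and 34.2 FPKM. Also called, and named after their values were seen, were the retinoic acid receptor Rarb (4.21 and 2.97 FPKM) and the guanine nucleotide exchange factor Rasgrp2 (7.49 and 5.35).

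Not every gene of these neurons stood lower. Arpp21 lay at 124 FPKM in wild type and 126 in the rescue, Gnal, the G protein that dopamine receptors use in the striatum, at 44.8 and 44.4, and Pdyn, the dynorphin precursor, at 12.28 and 11.97; these were named after their values were seen. Summed over all 38 models of the list, tested or not, the level was 638 FPKM in wild type and 553 in the rescue. Of the 29 models, 6 were called in the authors' comparison of knockdown with wild type (median log2 fold -0.17), where 2.67% of all models of at least 1 FPKM were called. In that of rescue with knockdown, where 0.806% were called, 1 of the 29 was (median -0.08). That 1 was Penk, with a fold of -0.36 in rescue over knockdown and of -0.04, not called, in knockdown over wild type. For Drd2 the folds were -0.65, called, in knockdown over wild type and -0.52, not called, in rescue over knockdown. Markers of striatal neurons are also transcribed at lower levels in cortex, and in bulk tissue fewer cells of a type and less RNA per cell cannot be told apart.

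Olfactory bulb and migrating neuroblast genes held the most models called higher of the 55 lists. This list was chosen with earlier results of these data known, and the comparison of knockdown with wild type shares the wild-type group. Its share of calls is therefore a description and no test. Of 22 models 14 were called higher (63.6%, against 0.398% of all models of this level), 0 lower and 8 were not called. No fold was negative and the median was 0.48. Some of these genes are also on the interneuron and neuropeptide lists. In bulk tissue more cells of a type, more RNA per cell and more adjoining tissue in the samples cannot be told apart. S100a5, a calcium-binding protein of olfactory neurons, lay at 2.57 FPKM in wild type and 6.94 in the rescue (log2 fold 1.43), Scgn, the calcium sensor secretagogin, at 1.79 and 4.64, Shisa3 at 1.02 and 2.56, and Eomes, a T-box factor of bulb projection neurons, at 1.23 and 3.02. Ms4a15 lay at 1.82 and 3.91 FPKM. Th, tyrosine hydroxylase, the rate-limiting enzyme of dopamine synthesis, lay at 4.76 and 7.55 FPKM, Calb2, the calcium buffer calretinin, at 18.5 and 28.9, and Cdhr1, a cadherin-related protein of bulb projection neurons, at 11.2 and 15.6. The smallest folds among those called were 0.30 for Synpr, a synaptic vesicle protein (64.5 and 79.2 FPKM), and 0.31 for Dcx, doublecortin, a microtubule protein of migrating neurons (7.71 and 9.56 FPKM, named after its values were seen).

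The bulb genes not called, named after their values were seen, included Omp, a marker of olfactory sensory axons, at 1.10 and 2.15 FPKM, and Dlx1 and Dlx2, transcription factors of inhibitory lineages, at 13.6 and 15.7 and at 4.22 in both groups. Summed over the 25 models of the list the level was 207 FPKM in wild type and 280 in the rescue, 1.35 times as high. Lhx1 was under 0.1 FPKM in both groups. Of 21 matched models, 18 were called in the authors' comparison of knockdown with wild type (median log2 fold 1.04) and 13 in that of rescue with knockdown (median -0.58). Of all models of at least 1 FPKM, 2.67% and 0.806% were called in those comparisons. S100a5, for example, had folds of 2.63 in knockdown over wild type and -1.18 in rescue over knockdown. In these tables the rescue values of the bulb genes named here as called lay between the wild-type and the knockdown values; rescue against knockdown was called for S100a5, Scgn, Shisa3, Eomes, Ms4a15, Th, Calb2 and Cdhr1 and not for Synpr and Dcx.

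**Figure D3:**
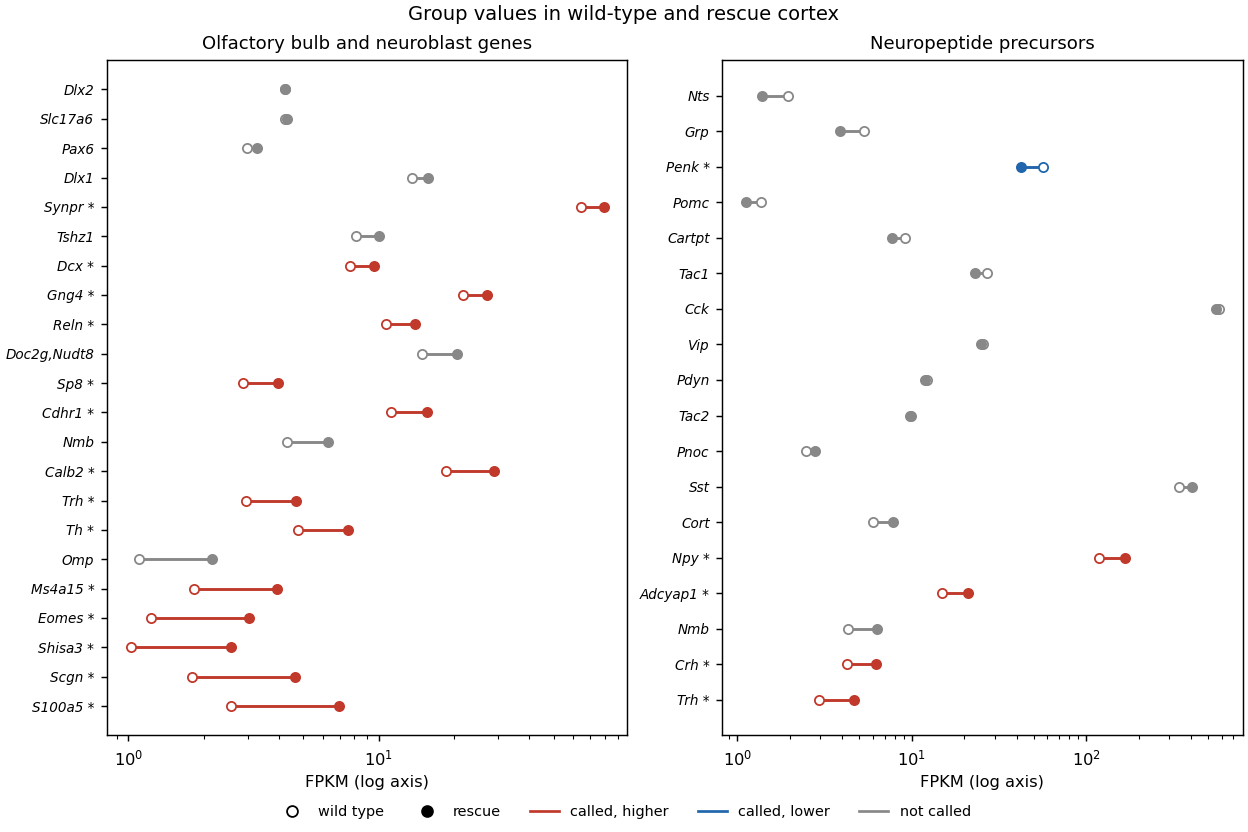
FPKM of each group (log axis, open circles wild type, filled circles rescue) for the 22 olfactory bulb and neuroblast models on the left and the 18 neuropeptide precursor models on the right, ordered by fold; red with an asterisk marks models called higher, blue with an asterisk models called lower and grey models not called. All bulb models lie at or to the right of wild type, while the peptide precursors are divided, with Npy (118 and 166) to the right and Penk (56.4 and 42.1) to the left.

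Neuropeptide genes moved in both directions. Of 18 precursor models 4 were called higher (22.2%, against 0.398% of all models of this level) and 13 were not called. The 1 called lower was Penk (5.56%, against 0.571%), and the median log2 fold was -0.01. Npy, neuropeptide Y, made by interneurons, lay at 118 FPKM in wild type and 166 in the rescue. Adcyap1, the precursor of PACAP, a peptide that raises cyclic AMP, lay at 14.8 and 21.0 FPKM. Crh, corticotropin-releasing hormone, lay at 4.26 and 6.27 FPKM and Trh, thyrotropin-releasing hormone, at 2.96 and 4.68. Sst, somatostatin, named after its values were seen, lay at 342 and 406 FPKM with an unadjusted p of 0.0018 and a q of 0.18 in the authors' deposited table, and was not called. The rescue levels of Npy and Adcyap1 were close to those of the knockdown, with folds of -0.16 and -0.06 in rescue over knockdown, both not called. Those of Crh and Trh were lower than in the knockdown, at -0.72 and -0.86, both called. Trh is also on the bulb list, whose summed level stood 1.35 times as high in the rescue; the part of that difference in the peptide folds was not tested. Of 11 models of prohormone processing genes and of granins, which package peptides into dense-core vesicles, 1 was called, higher. This was Scg2, secretogranin II, at 91.2 and 125 FPKM. Of 15 peptide receptor models Rxfp1, a relaxin receptor, was called higher (3.59 and 5.19 FPKM) and Oprk1, the kappa opioid receptor, lower (2.24 and 1.64).

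Interneuron markers were called for some classes and not for others. Of 18 subclass marker models 4 were called higher, Calb2, Npy, Nos1 and Reln (22.2%, against 0.398% of all models of this level). None was called lower, and the median log2 fold was -0.01. Reln, the extracellular guide protein reelin of superficial interneurons, lay at 10.7 and 14.0 FPKM. Calb2 and Reln are on the bulb list too. Pvalb, which marks fast-spiking basket cells, lay at 36.3 and 34.3 FPKM and Vip, which marks another class, at 25.8 and 24.9; neither was called, and both are named after their values were seen. Of 19 interneuron transcription factor models 1 was called, Sp8, at 2.86 and 3.97 FPKM, a factor that bulb interneurons share. None of 10 models of GABA synthesis, transport and breakdown and none of 12 GABA-A receptor subunits was called, with 0 and 2 at an unadjusted p under 0.05 in the authors' test. Among 35 models of excitatory layer markers 4 were called lower (11.4%, against 0.571% of all models of this level) and 0 higher, at a median of -0.09. Besides Nr4a2 and Cplx3 these were Crym, a thyroid hormone-binding protein (64.7 and 49.8 FPKM), and Otof, otoferlin, a calcium sensor for vesicle fusion (3.64 and 2.81 FPKM).

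**Figure D4:**
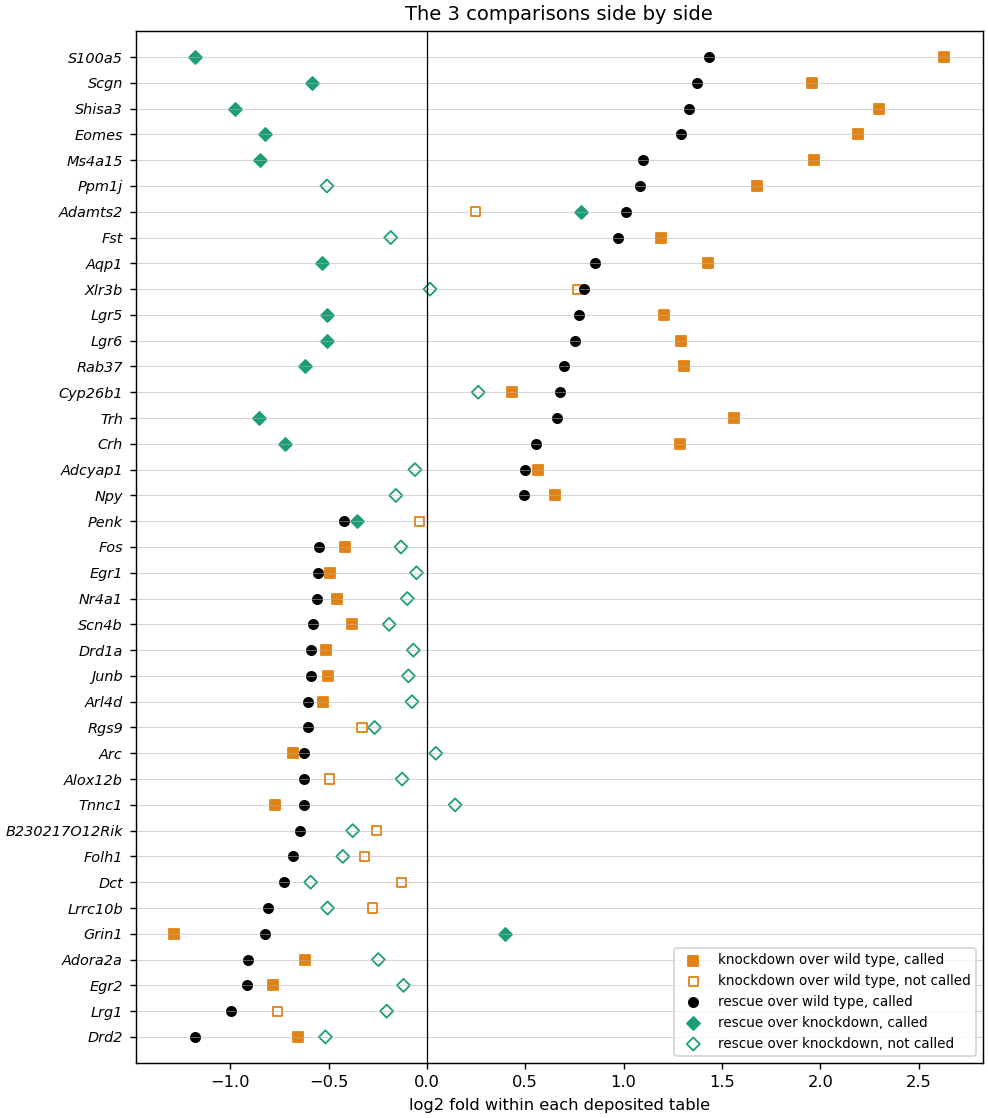
Log2 folds of 39 genes in the authors' 3 tables, orange squares for knockdown over wild type, black circles for rescue over wild type and green diamonds for rescue over knockdown; filled symbols were called in that table and open ones were not. The tables share groups. For S100a5 the folds are 2.63, 1.43 and -1.18, for Arc -0.68, -0.62 and 0.05, and for Adamts2 0.25, 1.01 and 0.78.

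A few genes stood higher in the rescue than in wild type and than in the knockdown. Adamts2, a protease that trims the ends of collagen precursors, lay at 2.04 FPKM in wild type and 4.12 in the rescue (log2 fold 1.01); its fold was 0.25, not called, in knockdown over wild type and 0.78, called, in rescue over knockdown. It was the 1 of 32 models of collagens, laminins and proteoglycans called higher, and Col11a1, a fibrillar collagen chain, the 1 called lower (2.25 and 1.73 FPKM). Haemoglobin transcripts, carried by red blood cells in vessels, were called in both tables too. The 2 models that merge Hba-a1 and Hba-a2, alpha globin, lay at 22.96 and 47.0 FPKM and at 10.2 and 21.1 FPKM, and Beta-s, beta globin, at 62.0 and 89.4. Their folds in rescue over knockdown were 0.65, 1.03 and 0.38, all called, and in knockdown over wild type 0.38, called, and 0.05 and 0.16, not called. These globin genes are near-identical copies, so how reads were divided among the models is uncertain. Of the 7 haemoglobin and erythroid models 3 were called higher (42.9%, against 0.398% of all models of this level) and 0 lower. None of 22 endothelial and 15 pericyte models was called, at medians of 0.11 and 0.09, with 4 and 2 at an unadjusted p under 0.05 in the authors' test. Rplp2, an acidic ribosomal stalk protein, had the highest fold among models with a mean of at least 1 FPKM, 3.70 FPKM in wild type and 41.2 in the rescue, with 3.28 FPKM in wild type and 2.66 in the knockdown where those groups were compared. It stood apart from the other 72 cytosolic ribosomal models, 0 of which were called, and since the gene is short and has near copies, its level is uncertain.

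Among other genes with large folds on the higher side were Lgr5 and Lgr6, receptors for R-spondins that strengthen Wnt signalling, at 2.48 and 4.24 FPKM and at 1.59 and 2.68 FPKM. Fst, follistatin, which binds and blocks activins, lay at 0.91 and 1.79 FPKM, and Cyp26b1, which degrades retinoic acid, at 2.99 and 4.78. Ppm1j, a protein phosphatase, lay at 0.807 and 1.71 FPKM, Rab37, a small GTPase of vesicle traffic, at 1.02 and 1.66, and the X-linked Xlr3b at 0.814 and 1.41. Fabp7, the fatty acid-binding protein of radial glia and astrocytes, was more abundant, at 37.1 and 55.3 FPKM, as was Nrip3 at 33.2 and 40.4. Folds in rescue over knockdown were negative and called for Lgr5, Lgr6, Rab37 and Fabp7 (-0.51, -0.51, -0.62 and -0.32), and not called for Fst (-0.18) and Cyp26b1 (0.26). On the lower side were Lrg1, a secreted glycoprotein (1.59 and 0.796 FPKM), Dct, an enzyme of melanin synthesis (1.37 and 0.826), Folh1, glutamate carboxypeptidase II, which releases glutamate from a neuropeptide (2.27 and 1.41), and Tnnc1, troponin C (24.9 and 16.1). Alox12b, a lipoxygenase, lay at 1.79 and 1.16 FPKM and B230217O12Rik at 5.65 and 3.61. Vstm2l lay at 66.2 and 48.9 FPKM. Camkk2, the kinase that activates calmodulin kinases I and IV, lay at 79.2 and 66.3 FPKM in its main model.

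Genes of glia, hormones and metabolism held few calls. Among all models of at least 1 FPKM, 0.398% were called higher in the rescue than in wild type and 0.571% lower. Of 23 glucocorticoid-induced models 2 were called lower, Per1 and Klf9, a Krüppel-like factor (66.1 and 54.9 FPKM), and 0 higher; 22 folds were negative and the median was -0.16. In the other tables the median of this list was 0.16 in knockdown over wild type, with 4 of 22 called, and -0.26 in rescue over knockdown, with 9 of 23 called. Of all models of at least 1 FPKM, 2.67% and 0.806% were called there. Of 23 astrocyte models Gfap, the intermediate filament that reactive astrocytes raise, was called higher (34.6 and 41.9 FPKM). Its folds were 0.64 in knockdown over wild type and -0.35 in rescue over knockdown. Of 14 models of ferritin, globin and iron handling 3 were called lower: Ftl1, the ferritin light chain (94.8 and 63.8 FPKM), Cygb, cytoglobin (18.7 and 14.5), and Tfrc, the transferrin receptor (28.9 and 23.8). Ftl1 has processed copies, so its level is uncertain. Aqp1, a water channel that the choroid plexus makes and other cells share, was the 1 of 7 choroid plexus and ependymal models called, at 0.839 and 1.52 FPKM. Of 24 cholesterol synthesis models 22 folds were negative and 1 was called, lower in the rescue.

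The other lists with calls were small in number. Among all models of at least 1 FPKM, 0.398% were called higher and 0.571% lower. In thalamic and hypothalamic genes 3 of 12 models were called higher, Calb2, Trh and Ntng1, netrin G1 of thalamic axons (4.64 and 5.87 FPKM). In cadherins 3 of 36 were higher, Cdhr1, Pcdh15 (2.52 and 3.34 FPKM) and Pcdh20 (4.96 and 6.28). Among G protein subunits and RGS proteins 2 of 37 were higher, Rgs4 and Gng4 (21.7 and 27.0 FPKM), and 2 lower, Rgs9 and Gng7. Many of these calls repeat those of other lists. Calb2, Trh, Cdhr1 and Gng4 are also on the bulb list, Rgs9 and Gng7 on the striatal list and Rgs4 among the secondary effectors. Scn4b was the 1 of 28 sodium, calcium and HCN channel models called and Per1 the 1 of 17 clock models, both lower. Aen, a nuclease, was the 1 of 18 p53 targets called, higher at 4.70 and 6.17 FPKM. Of 279 models of numbered Zfp genes 2 were called lower, Zfp189 (3.29 and 2.35 FPKM) and Zfp948 (3.97 and 3.01). That share is 0.717%, near the 0.571% of all models of this level.

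In 27 of the 55 lists no model of at least 1 FPKM was called by the authors' test at q under 0.10. Among the largest of them were nuclear oxidative phosphorylation genes (92 models, 81 negative folds, median -0.07, 0 at an unadjusted p under 0.05), mitochondrial ribosomal proteins (72, median -0.05, also 0) and potassium channels (61, median -0.04, 9 at that p). Myelin genes (23, median -0.06), oligodendrocyte precursor genes (13, median 0.14) and microglia and complement genes (18, median 0.01) had 1, 1 and 0 at that p. The 23 meningeal fibroblast models had 21 positive folds, a median of 0.15 and 8 at that p. Over all lists, the calls covered 71 of the 134 called models, and 63 were on none.

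**Figure D5:**
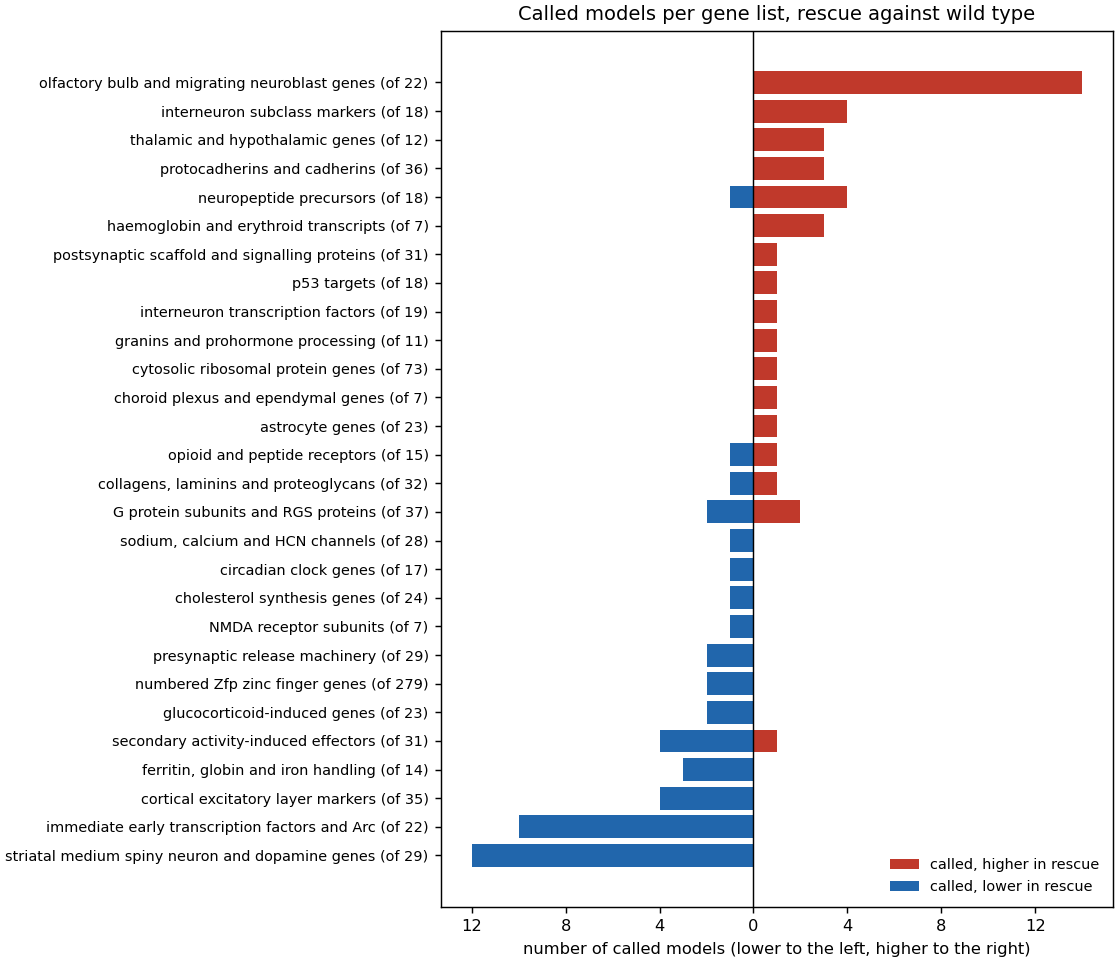
Number of called models per gene list, lower in the rescue to the left (blue) and higher to the right (red), for the 28 lists with at least 1 called model of at least 1 FPKM; the number of models in each list is in brackets and a gene can stand in more than 1 list. The bulb list reaches 14 on the right, and the immediate early and striatal lists 10 and 12 on the left.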

How the data were processed

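Polyadenylated RNA of frontal cortex from 12 male mice, 4 per group, was sequenced, per the labels' protocols. Builds mm10 and GRCm38 are named in the submitters' processing notes, with the tools TopHat2 2.1.0, Cuffdiff 2.2.1.3, Cufflinks 2.2.1.0 and FastQC 0.65. Per the file headers, each of the authors' 3 deposited Cuffdiff tables holds 1 FPKM per group for every assembled gene model. The same deposited tables give the authors' p-value and q-value of each model, its log2 fold and the score of the Cuffdiff test, called the test statistic here. Without values per animal, depth and spread per sample are unknown.

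Folds were recomputed here as log2 of the rescue FPKM over the wild-type FPKM, with no pseudocount, for models with status OK; 12611 models were not tested and 2 failed. They differed from the deposited folds by at most 1.29e-05. A model was called at p under 0.05 and q under 0.10, as the series' design text states; the deposited q-values differed from a Benjamini-Hochberg adjustment over the tested models by at most 5e-07. Gene lists were counted among models whose FPKM averaged at least 1 over both groups. Models were matched across tables by symbol and overlapping locus and, where a symbol has several models, by a shared group level within 1.5 times; 131 of the 134 called models of at least 1 FPKM were matched in both other tables. Of 14500 single-symbol models 13239 were found by symbol in GENCODE M21. Promoters came from RefSeq.

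Genes named are Grin1 and the other NMDA receptor genes, the 15 called models with the highest and the 15 with the lowest folds among single-symbol models of at least 1 FPKM, the 10 most abundant called models in each direction, up to 6 called members of each list, and genes of the tissue check; any other gene is said to be named after its values were seen. Some genes that meet this rule are not reported here. The members and lists were chosen with earlier results of these data known. The fold and call steps were tested on simulated data. Alternatives were another q threshold, FPKM filters, a fold minimum, single-symbol models, 1 model per symbol, p from the test statistic, centred folds and pseudocounts. Python 3.11.15 with numpy 2.4.6, pandas 2.3.3, scipy 1.17.1 and matplotlib 3.10.9 was used.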

Additional observations from a re-analysis of the deposited data

How the results depend on the processing

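No paired analysis was possible because the tables hold 1 value per group, and for the same reason no animal could be left out. The 155 calls, 67 higher and 88 lower, became 18, 10 and 8 with p taken from the deposited test statistic, 80, 31 and 49 at a mean FPKM of at least 5, and 92, 42 and 50 with an absolute log2 fold of at least 0.5. They stayed within 1.5 times under the other alternatives, from 122, 53 and 69 at q under 0.05 to 155, 67 and 88 with folds centred on their median of -0.01. The Grin1 fold of -0.82 was -0.81 when centred and -0.82 with a pseudocount of 0.1 or 1, and its q from the statistic was 0.0356. With p from the statistic, calls remained in 5 lists: Grin1 among NMDA receptor genes, 2 of 14 in the bulb list, 1 of 3 haemoglobin models, Adamts2 and Rplp2. At q under 0.05 the calls of secondary effectors, astrocytes, p53 targets and G proteins on the higher side and of cholesterol genes on the lower side went to 0, and those of glucocorticoid-induced, G protein and Zfp genes on the lower side from 2 to 1. Without an FPKM filter 1 acetylcholine receptor gene was called in each direction and 2 in place of 1 of the collagen and proteoglycan list were higher. Neither centring nor a pseudocount of 1 changed the direction of a called gene. The cause of the gap between deposited p and statistic was not tested, and with depth unknown no detection limit can be given for models at low FPKM.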

Other observations

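Within 10 Mb of Grin1 on chromosome 2, 269 models were tested and 3 were called (1.12%, near the 0.841% of all tested models). 4932418E24Rik, 0.924 Mb away, lay at 1.10 FPKM in wild type and 0.694 in the rescue. The model that merges Snhg7, Snora17 and Snora43, a small nucleolar RNA host, 1.32 Mb away at 26636907 to 26640260, lay at 13.1 and 4.51 FPKM, with log2 folds of -1.53 in rescue over wild type, -1.29 in knockdown over wild type (called) and -0.01 in rescue over knockdown (not called). Pbx3, a homeodomain factor 8.85 Mb away, lay at 7.79 and 10.9 FPKM, with a fold of 0.96 in knockdown over wild type and -0.49 in rescue over knockdown, both called. These and the genes below were named after their values were seen.

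Among the called models 13 carry no symbol. The most abundant, on chromosome 13 from 62006767 to 62126126, lay at 121 FPKM in wild type and 76.2 in the rescue and overlaps the long noncoding RNA Gm48228 and several pseudogenes. A model on chromosome 13 from 74406327 to 74407497 overlaps Ftl1-ps1, a copy of the ferritin light chain gene, and lay at 27.3 and 18.5 FPKM, while Ftl1 itself lay at 94.8 and 63.8; reads of these copies may be shared between the models. A pair of models in the immunoglobulin kappa region of chromosome 6 was lower in the rescue: that over Igkc and the Igkj segments lay at 3.37 and 0.998 FPKM, and that over Igkv13-84 at 0.656 FPKM in wild type and is listed at 0 in the rescue.

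Below 1 FPKM 21 models were called. Tbx21, a T-box factor of bulb projection neurons, lay at 0.492 and 1.37 FPKM, Acan, the core protein of perineuronal nets, at 0.448 and 0.889, and the nicotinic receptor subunits Chrnb4 and Chrnb3 at 0.163 and 0.353 and at 0.607 and 0.369. Gh, growth hormone, lay at 0.0139 FPKM in wild type and 1.93 in the rescue with a p of 0.071 in the authors' deposited table, and was not called. Of RNAs without a poly(A) tail, Rn45s lay at 661 and 590 FPKM, Rpph1 at 1.22 and 1.42 and Rmrp at 1.45 and 2.25. None of these 3 models was called. Their median log2 fold was 2.56 in knockdown over wild type and -2.05 in rescue over knockdown, with all 3 called in each. The knockdown group thus stood apart from both other groups in these RNAs. What this means for the other folds that involve the knockdown was not tested.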
